A study of Mus musculus with 8 samples.

Results

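Complement and coagulation are the 2 protease cascades of blood plasma. In complement, C1q or lectins bind a target and set off serine proteases that cleave C3 and C5, which marks the target, releases peptides that attract leukocytes and can end in a membrane pore. Regulators on host cells and in plasma stop the cascade. In coagulation, tissue factor exposed to blood activates factors VII and X, thrombin then turns fibrinogen into fibrin, and factor XIII crosslinks it. Antithrombin, the tissue factor pathway inhibitor and the thrombomodulin and protein C system hold clotting back, and plasminogen activators dissolve the clot. Most plasma factors are made by the liver, while macrophages make C1q and factor XIII A and many tissues make the membrane-bound receptors and regulators.

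The list held 44 mouse genes of these cascades, fixed by name. Of these, 40 had at least 1 probe set annotated to that gene alone, with 56 such probe sets among 20380 on the array. C4b shares its probe set with C4a and is described apart, and C3, Cfd and F2rl1 were not analysed here. The RNA came from ventral prostates of male mice of the FVB strain aged 8 weeks. It was read on 4 arrays for wild type and on 4 for mice that carry a polyoma virus middle T antigen (MT) transgene, a membrane-bound viral oncoprotein, in a study of normal prostate against prostate cancer. The sources used here do not give the promoter that drives the transgene. Nor do they state whether each array stands for another animal, so the p-values rest on the scatter among these arrays, which may be only technical.

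All values are log2 values after RMA, and all differences are MT minus wild type. Levels are given as mean ± SD (n = 4 arrays per group) and differences with the standard error of a limma fit over 12393 genes. A gene passed at an adjusted p under 0.05. Arrays correlated at 0.992 or more within a group and at 0.963 to 0.969 between groups. The tissue markers were present: luminal epithelial genes had mean levels of 10.79 to 10.97 on wild-type arrays and 11.63 to 11.74 on MT arrays, and 8 of 8 rose. Secretory genes of the ventral lobe had mean levels of 12.76 to 13.10 and of 9.56 to 10.42, and 4 of 4 fell. Smooth muscle genes (8 of 8), fibroblast genes (9 of 10), basal epithelial genes (4 of 5) and adipocyte genes (4 of 6) fell as well. The adipocyte genes had mean levels of 5.38 to 7.38 on wild-type arrays, highest on array 4, and of 5.02 to 5.82 on MT arrays. Wild-type array 4 was the highest of its group for 9 of the 16 members that passed, and whether adipose content has a part in this was not tested. In such bulk tissue, fewer cells of a type and less RNA per cell cannot be told apart.

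In all, 9 members rose and 7 fell in MT, and 24 did not pass. That is 40.0% of the 40 measured members, while 41.1% of all genes tested passed, so the list as a whole changed about as often as other genes. The share that rose was 22.5% (19.7% of all genes) and the share that fell 17.5% (21.3% of all genes). The median difference of the members was -0.01, as was that of all genes. The change was at least 2-fold for Cd55 and F2r among the rises (2.83% of all genes) and for Cd59a, F13a1 and Tfpi among the falls (2.25% of all genes). The ranges of the MT and the wild-type arrays did not overlap for 15 members, or 37.5%, beside 40% of all genes.

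**Figure D1:**
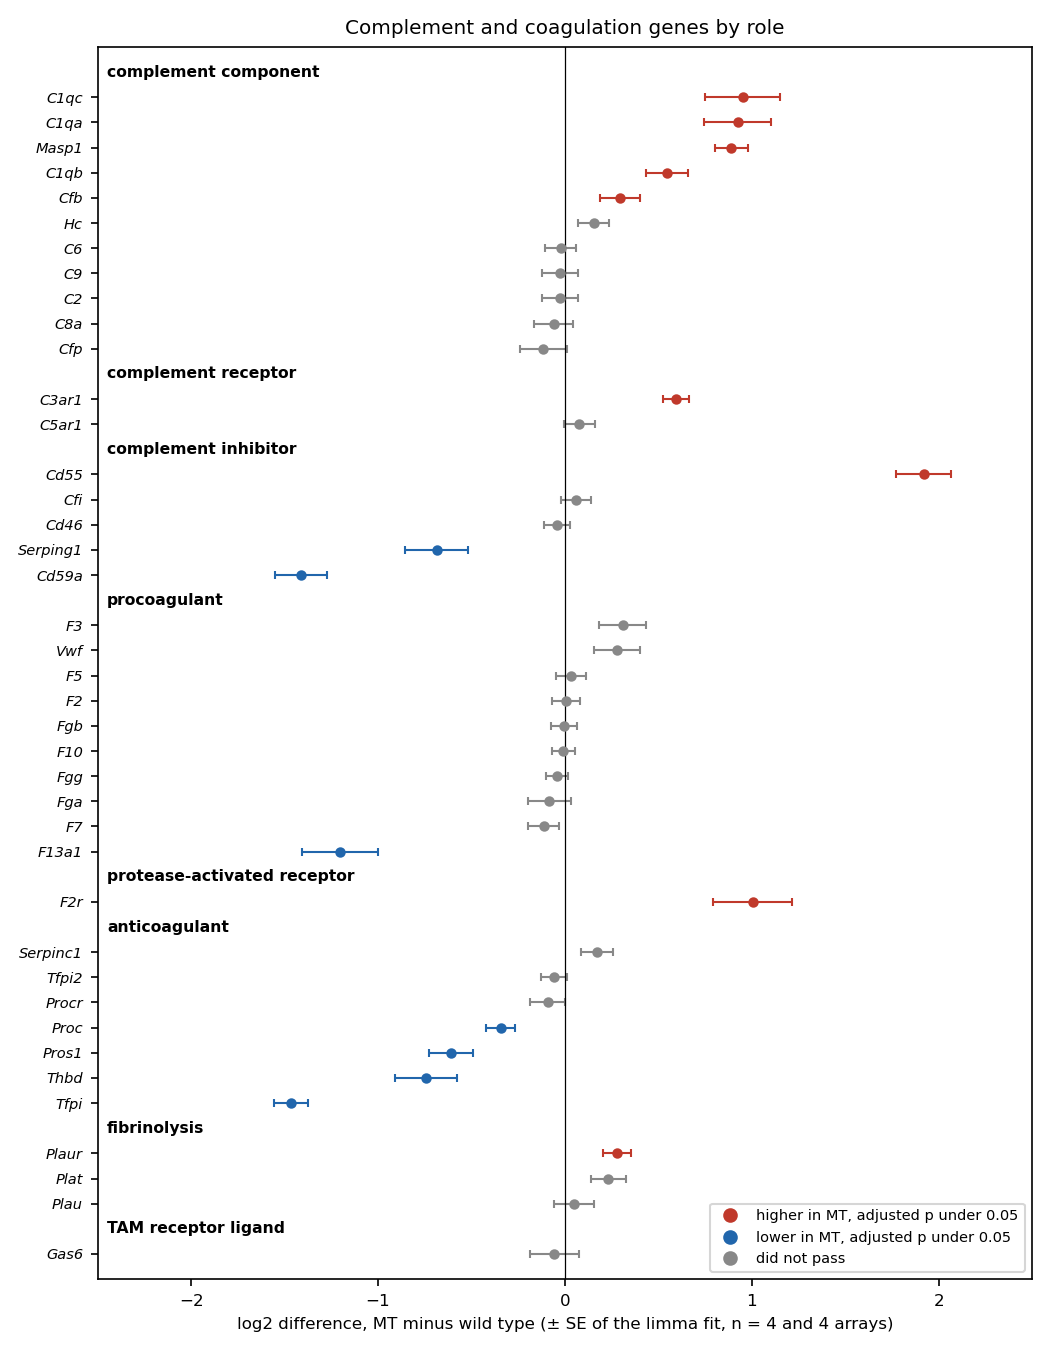
Log2 differences, MT minus wild type, of the 40 measured genes, grouped by role, with the standard error of the limma fit (4 arrays per group). Red points rose, blue points fell and grey points did not pass; Cd55 lies farthest to the right at 1.92 and Tfpi farthest to the left at -1.47.

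Many members read at levels where the array may hold little signal. The array carries controls for bacterial genes, and 12 redesigned ones read from 2.57 to 3.90, but the brightest of all 27 such controls reached 5.55 to 5.86 depending on the array. Only 12 members were above that brightest control on all 8 arrays, namely C1qa, C1qb, C1qc, C2, Masp1, Cd46, Cd59a, Serping1, F13a1, Tfpi, Plaur and Gas6. Of these 12, 5 rose, 4 fell and 3 did not pass. Another 19 members were above it on 0 of 8 arrays, and 1 of them passed (Proc). The other 9 were above it on some arrays. Against the brightest of the 12 redesigned controls instead, 1 member (Fgb) was at or under the mark on all 8 arrays. The mark from all 27 controls is thus the stricter one, and a level under it does not show that a gene is unexpressed.

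The split between activating and inhibiting genes was uneven. Of 21 measured activating genes (11 complement components and 10 procoagulants), 5 rose and 1 fell, with a median difference of -0.01. Of 12 inhibiting genes (5 of complement and 7 of coagulation), 1 rose and 6 fell, with a median of -0.22. All 5 rises among the activating genes were complement components, and 4 of the 6 falls among the inhibitors were anticoagulants. These 5 rises were those of the 3 C1q chains, of Masp1, whose probe sets disagreed, and of Cfb, whose call was lost in several alternatives. Levels limit this split, since 9 procoagulants and 3 complement components were never above the brightest bacterial control, as were 4 anticoagulants and Cfi. In the lists of other genes, 2 of 13 complement genes rose and 4 fell, and 0 of 12 coagulation factors rose and 4 fell. Of the other inhibitors, 0 of 6 for complement and 0 of 5 for coagulation passed. Among all genes tested 19.7% rose and 21.3% fell, and the difference between the classes was not tested, since the members were chosen with results of these data known.

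**Figure D2:**
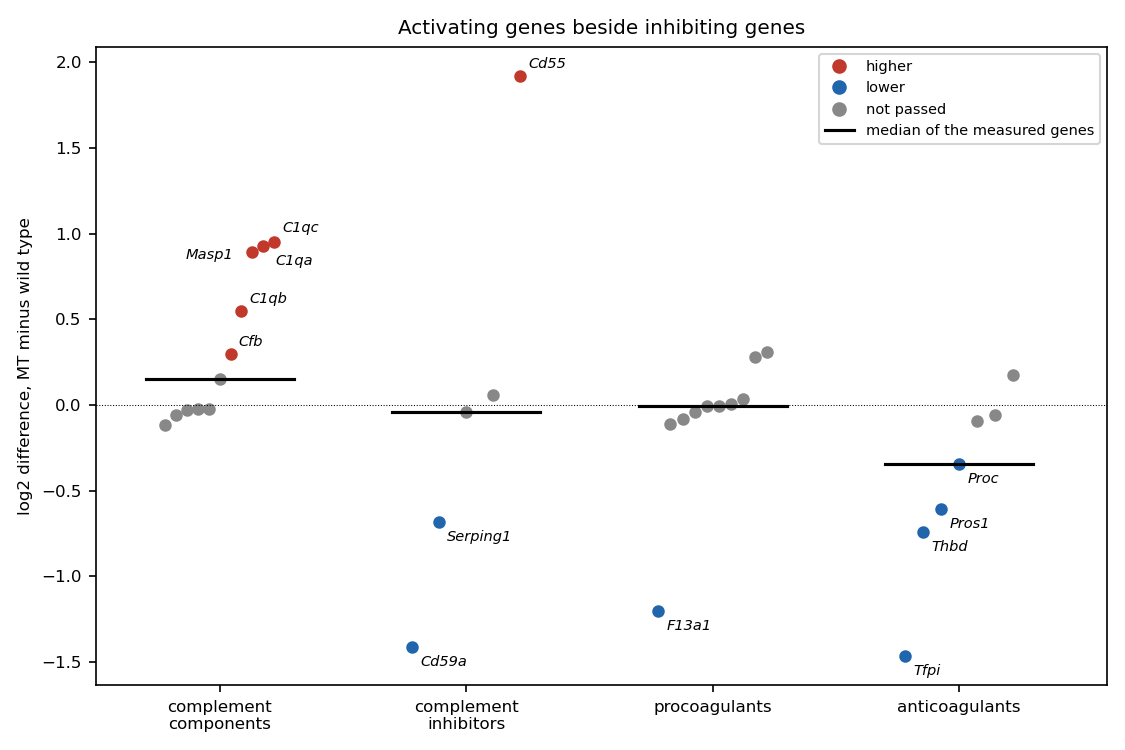
Log2 differences, MT minus wild type, of activating and inhibiting genes of both cascades, 1 point a gene, with the median of each class as a black line. The medians were 0.15 for complement components, -0.04 for complement inhibitors, -0.01 for procoagulants and -0.34 for anticoagulants; genes that passed are named.

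The recognition molecule of the classical complement pathway rose in all 3 of its chains. C1qa, the A chain, read 7.77, 7.39, 8.10 and 8.41 on wild-type arrays 1 to 4 and 8.65, 8.85, 9.05 and 8.82 on MT arrays 1 to 4. Every MT value was above every wild-type value, with wild-type array 2 the lowest and wild-type array 4 the highest of its group. The difference was 0.93 ± 0.18, or 1.90-fold (adjusted p = 0.00165). C1qc, the C chain, showed the same order of wild-type arrays, with 6.67, 6.27, 6.98 and 7.41 in wild type against 7.56, 7.76, 8.05 and 7.77 in MT. It rose by 0.95 ± 0.20, or 1.93-fold (adjusted p = 0.0028).

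C1qb, the B chain, was measured by 3 probe sets, and all 3 rose. The brightest, which stands for the gene, read 7.28 ± 0.23 in wild type and 7.82 ± 0.12 in MT, a difference of 0.55 ± 0.11 (adjusted p = 0.00218). Its ID marks it as open to cross-hybridisation, as does that of a second one (0.76 ± 0.14). The probe set of the unique type rose from 6.15 ± 0.54 to 7.25 ± 0.20, by 1.10 ± 0.22, close to the rise of the A and C chains. C1qa, C1qc and C1qb are adjacent genes, with 0 protein-coding genes starting between neighbours in the reference annotation.

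The proteases next to C1q did not share its direction. C1s1 and C1ra, which encode the proteases of the C1 complex and were listed as other complement genes, fell, with differences of -0.83 ± 0.13 for C1s1 (adjusted p = 0.000366) and -0.34 ± 0.10 for C1ra (adjusted p = 0.0224). C2, which C1s cleaves to form the convertase, read 6.09 ± 0.20 in wild type and 6.07 ± 0.09 in MT, a difference of -0.03 with a 95% interval from -0.24 to 0.19. The probe set shared by C4a and C4b, the other substrate of C1s, read 7.15, 7.08, 7.40 and 7.75 in wild type and 7.64, 7.73, 7.73 and 7.76 in MT. Wild-type array 4 lay inside the MT range there, while the other wild-type arrays lay below it.

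Masp1 encodes proteases of the lectin pathway that ride on mannose-binding lectin and ficolins, and, by alternative splicing, a related protease and a truncated regulator. Its brightest probe set read 6.06, 6.22, 5.92 and 6.07 in wild type and 7.14, 7.03, 6.83 and 6.85 in MT. The groups did not overlap, and the rise was 0.89 ± 0.09, or 1.85-fold (adjusted p = 1.43e-05). Its 5 probe sets disagreed. A second one rose from 5.51 ± 0.05 to 6.54 ± 0.08, by 1.04 ± 0.07, while 3 dimmer ones, with means from 3.48 to 4.59, did not pass and had differences of -0.15, 0.15 and -0.03. Which transcripts each probe set reads was not analysed here, and both probe sets that rose are of a type shared between transcripts. Among the lectin pathway's recognition genes, Fcna, a ficolin of macrophages, fell from 7.37 ± 0.78 to 6.06 ± 0.06 (adjusted p = 0.00413), and Mbl1, Mbl2 and Masp2 did not pass.

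Cfb, factor B, the protease of the alternative pathway's convertase, rose only narrowly. It read 5.35, 5.82, 5.74 and 5.84 in wild type and 6.09, 6.06, 5.94 and 5.86 in MT. The groups did not overlap, but the highest wild-type and the lowest MT value were close. The difference was 0.30 ± 0.11 (adjusted p = 0.0462). The call was lost with same-numbered arrays as a replicate block (adjusted p = 0.0635), after renewed quantile normalization (adjusted p = 0.0611) and when wild-type array 1 or 3, or MT array 1, 2 or 3, was left out (adjusted p between 0.0667 and 0.115). Without wild-type array 1 the difference was 0.19. Over all alternatives its adjusted p ran from 0.0326 to 0.115. Cfp, properdin, which stabilises that convertase, had a difference of -0.11 ± 0.13 (adjusted p = 0.516), with wild-type values from 5.60 to 6.27 around MT values from 5.77 to 5.92.

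The listed members that form the membrane attack complex or, as C5, start it did not pass. Hc (complement C5), C6, C8a and C9 had differences from -0.06 to 0.15, and adjusted p-values of 0.165 or more. Hc, C8a and C9 read 3.84 ± 0.15, 3.62 ± 0.07 and 4.61 ± 0.16 in wild type, below the brightest bacterial control on every array, and C6 was above it on 2 of 4 arrays of each group. C8g, from the list of other complement genes, encodes a further subunit of C8 and fell by 0.59 on the log2 scale (adjusted p = 0.000143). It was under the brightest bacterial control on all arrays but wild-type array 4. In all, of 13 other complement genes measured, 2 rose, 4 fell and 7 did not pass. The rises were Itgax (0.85 ± 0.13) and Itgb2 (0.60 ± 0.16), the chains of complement receptor type CR4, which binds cleaved C3 on leukocytes. For Itgb2 the groups overlapped, and every value was under the brightest bacterial control of its array.

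Of the receptors for the released peptides, C3ar1 rose and C5ar1 did not pass. C3ar1, the receptor for C3a, read 5.12, 5.17, 5.25 and 5.30 in wild type and 5.75, 5.75, 5.79 and 5.93 in MT. The groups were well apart and tight, and the rise was 0.59 ± 0.07, or 1.51-fold (adjusted p = 4.87e-05). In wild type, all 4 values were below the brightest bacterial control. With the wild-type values raised to that control, the MT mean was at least 1.06-fold higher. The gene's second probe set rose by 0.33 ± 0.12 with overlapping groups (adjusted p = 0.0492 over all single-symbol probe sets). C5ar1, the receptor for C5a on neutrophils and macrophages, had a difference of 0.08 with a 95% interval from -0.11 to 0.27.

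Most markers of macrophages rose, as the C1q chains and C3ar1 did. Of 12 macrophage markers, 7 rose, 2 fell and 3 did not pass, with a median difference of 0.35. Their mean level lay between 6.03 and 6.59 on wild-type arrays and between 6.76 and 6.93 on MT arrays. Wild-type arrays 2 and 4 were the lowest and the highest of their group, as they were for C1qa and C1qc. For C1qb and C3ar1, array 4 was also the highest, but the lowest was array 3 for C1qb and array 1 for C3ar1. Arrays 2 and 4 held the same places for F13a1 and the fibroblast markers, which fell. Ctss, a lysosomal protease, rose by 2.40 ± 0.18, while Csf1r, the receptor that macrophages need for growth, had a difference of 0.32 ± 0.13 (adjusted p = 0.0708), and Lyz2 one of 0.28 ± 0.25 (adjusted p = 0.416). The 2 markers that fell, Mrc1 (-0.53 ± 0.17) and Cd163 (-0.42 ± 0.13), are scavenger receptors of tissue-resident macrophages. The groups overlapped for both. Cd163 read 3.94 ± 0.27 in wild type and 3.52 ± 0.14 in MT, close to the redesigned bacterial controls. Neutrophil markers, which C3ar1, C5ar1 and Itgb2 accompany in those cells, had mean levels between 4.76 and 4.87 on wild-type and between 5.79 and 6.23 on MT arrays. Of these, 4 of 9 rose and 5 did not pass, with a median difference of only 0.20. The largest rises were those of Ltf (4.05 ± 0.22), S100a8 (3.33 ± 0.14) and S100a9 (2.72 ± 0.17), which weigh most in the mean level. Those that did not pass were Elane, Mpo, Camp, Cxcr2 and Ngp, with differences from 0.07 to 0.20. The part of macrophage and neutrophil content in the rise of C1q and C3ar1 was not tested.

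**Figure D3:**
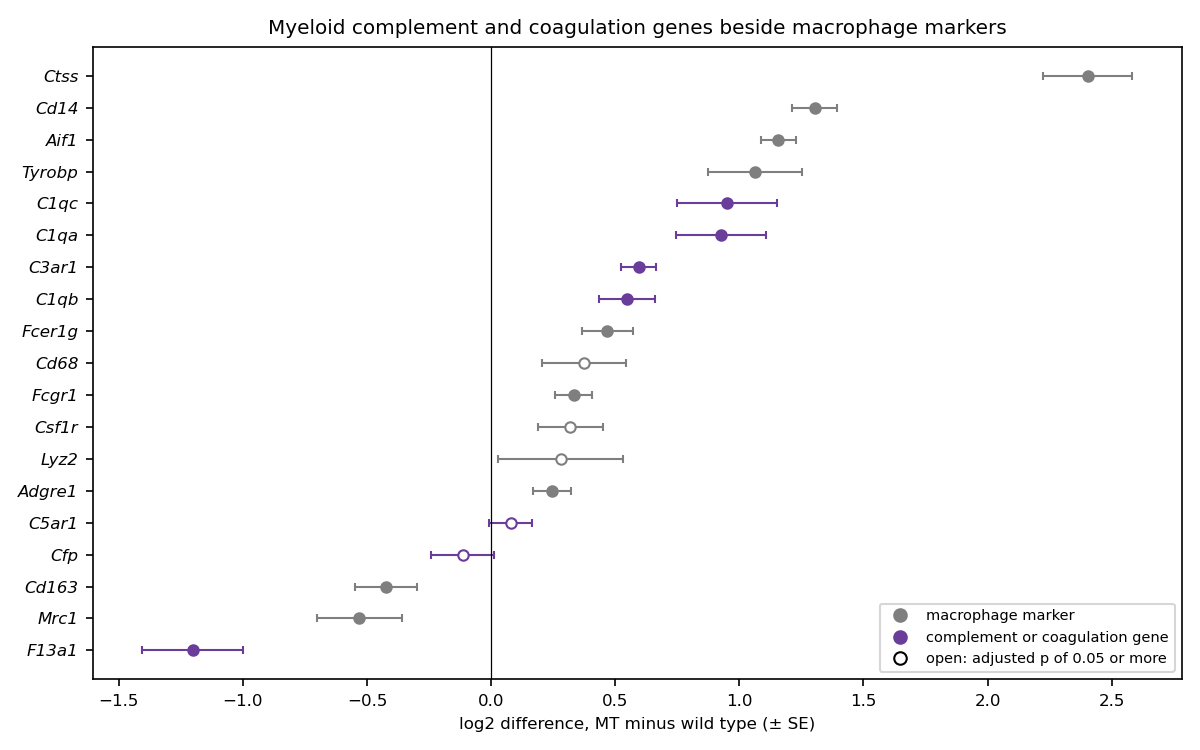
Log2 differences, MT minus wild type, with standard errors, of the complement and coagulation genes that macrophages are known to express (purple) beside 12 macrophage markers (grey); open points did not pass. C1qa, C1qb, C1qc and C3ar1 lie between 0.55 and 0.95. F13a1 lies at -1.20 beside Mrc1 and Cd163, for which the wild-type and MT values overlapped.

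Of 5 complement inhibitors 1 rose (Cd55), 2 fell (Cd59a and Serping1) and 2 did not pass. Cd55, decay-accelerating factor, which takes apart the convertases on the cell surface, read 4.95, 5.49, 5.60 and 5.04 in wild type and 7.003, 7.35, 7.34 and 7.06 in MT. The groups were far apart, and the rise of 1.92 ± 0.15, or 3.79-fold (adjusted p = 1.74e-06), was the largest of the 40 members. All wild-type values lay below the brightest bacterial control of their array, and with these raised to that control the MT mean was at least 2.77-fold higher. A second Cd55 probe set rose less, from 5.08 ± 0.26 to 5.92 ± 0.14, by 0.85 ± 0.12.

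Cd59a, which blocks the assembly of the membrane pore, moved the other way. It read 9.67, 9.08, 8.92 and 9.37 in wild type and 7.90, 7.68, 7.84 and 7.96 in MT. No value of the groups overlapped, and the fall was 2.66-fold, with a difference of -1.41 ± 0.14 (adjusted p = 1.26e-05). Its second probe set fell from 7.70 ± 0.34 to 5.93 ± 0.13, by 1.76 on the log2 scale. Mice carry near-copies of both genes, Cd55b and Cd59b, and whether these add to the signal was not tested.

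Serping1, the C1 inhibitor, which inactivates C1r, C1s and the lectin pathway proteases as well as kallikrein of the contact system, read 9.70, 9.33, 9.88 and 10.15 in wild type and 8.96, 8.77, 9.30 and 9.28 in MT. The highest MT value was just below the lowest wild-type value. The difference was -0.69 ± 0.17, or 1.61-fold lower (adjusted p = 0.00672). With both wild-type array 4 and MT array 2 taken out, it was -0.45 (adjusted p = 0.0397). Fibroblasts are a known source of C1 inhibitor, C1r and C1s. The fibroblast markers had mean levels between 8.35 and 9.08 on wild-type and between 7.51 and 8.05 on MT arrays. In wild type they were lowest on array 2 and highest on array 4, as Serping1 and also the macrophage markers were. In MT the orders differed. The fibroblast markers were lowest on array 1 and highest on array 4, while Serping1 was lowest on array 2 and highest on array 3. The part of fibroblast content in the fall of Serping1 was not tested.

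Cd46, a cofactor for the cleavage of C3b and C4b that in mice is made mainly in testis, read 6.10 ± 0.09 in wild type and 6.06 ± 0.08 in MT (adjusted p = 0.676). Cfi, factor I, the protease that makes that cleavage, had a difference of 0.06 with a 95% interval from -0.12 to 0.23, at levels under the brightest control on every array. Of 6 other complement inhibitors measured, 0 passed in limma and 0 had an unadjusted p under 0.05. Among them Cr1l, the mouse regulator Crry that acts on the convertases as Cd55 does, read 9.19 ± 0.09 and 9.16 ± 0.05, and Clu, clusterin, read 13.18 ± 0.25 and 12.98 ± 0.04.

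**Figure D4:**
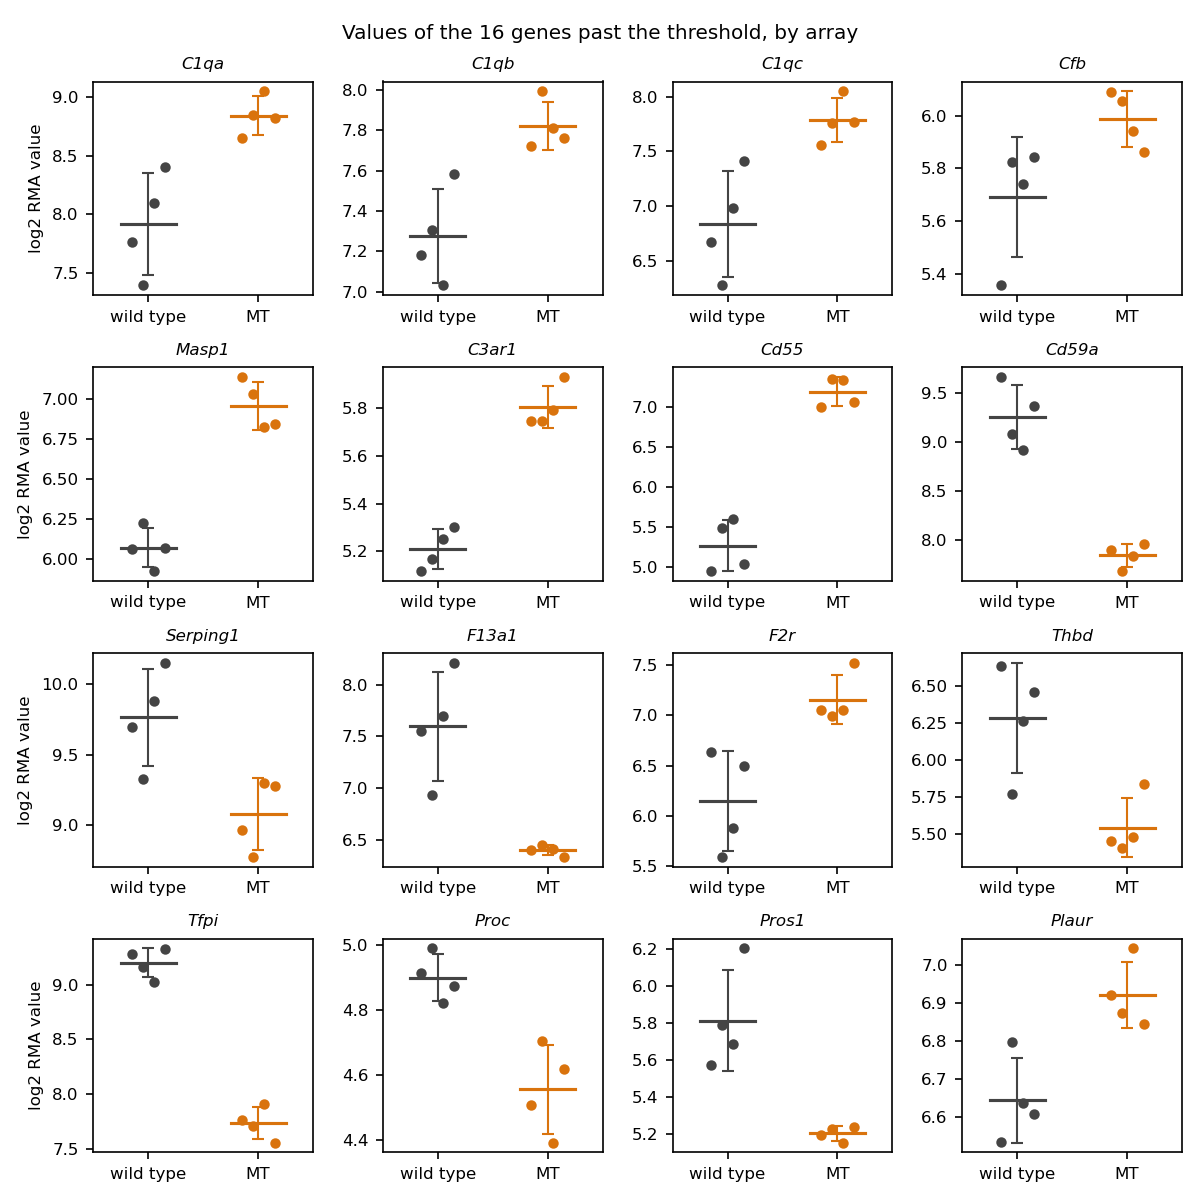
Log2 RMA values of the 16 genes that passed, 1 point an array, with the mean (long bar) and SD (error bar) of wild type (grey, 4 arrays) and MT (orange, 4 arrays); each panel has its own axis, which does not start at 0. The groups overlap for Thbd only.

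Of 10 procoagulant genes, 1 passed, and it fell. F13a1 encodes the A subunit of factor XIII, the transglutaminase that crosslinks fibrin, and tissue-resident macrophages make it. It read 7.55, 6.93, 7.70 and 8.21 in wild type and 6.40, 6.45, 6.41 and 6.33 in MT. The MT values lay within a narrow range under all wild-type values, which themselves spread widely. The difference was -1.20 ± 0.20, or 2.30-fold lower (adjusted p = 0.000641). It moved with Fcna and against C1qa, and its direction was also that of Mrc1 and Cd163, for which the groups overlapped. On the wild-type arrays, however, the order of F13a1 was that of C1qa. Platelets also hold factor XIII A, and of 6 platelet markers 2 rose (Pf4 and Ppbp) and 0 fell.

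The other 9 procoagulants were below the brightest bacterial control on all arrays. The fibrinogen genes Fga, Fgb and Fgg, which are neighbours on the chromosome, read 3.47 ± 0.16, 3.33 ± 0.08 and 3.70 ± 0.05 in wild type, within the range of the redesigned bacterial controls. F2 (prothrombin), F5, F7 and F10 had differences from -0.11 to 0.03 and adjusted p-values from 0.317 to 0.956. Hepatocytes make most of these factors. Of their markers, Alb read 4.63 in both groups, while Ttr (6.28 in wild type and 6.21 in MT) and Cyp2e1 (7.56 and 5.92) had means above the brightest control. In all, 5 of 7 measured markers were under 0.1 in size of difference, and 1 passed (Cyp2e1, lower).

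The procoagulants of tissue and vessel wall, F3 and Vwf, were higher in MT without passing. F3, tissue factor, which starts coagulation outside the vessel, read 4.92, 4.64, 5.11 and 5.30 in wild type and 5.44, 5.26, 5.36 and 5.15 in MT. Wild-type array 4 lay inside the MT range. The difference was 0.31 ± 0.13 (adjusted p = 0.0698), and without that array it was 0.41 and passed (adjusted p = 0.0147). Over all alternatives its adjusted p ran from 0.0147 to 0.166.

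Vwf, von Willebrand factor, an adhesive protein of endothelium and platelets, had a difference of 0.28 ± 0.12 (adjusted p = 0.0971), with wild-type values of 4.39, 4.13, 3.95 and 4.51 and MT values of 4.74, 4.39, 4.40 and 4.56. It passed when same-numbered arrays formed a replicate block (adjusted p = 0.0234) and when wild-type array 4 was left out (adjusted p = 0.0319), over a range of adjusted p from 0.0234 to 0.247. Endothelial markers had 0 rises and 2 falls among 11, Cldn5 and Tek, with a median difference of -0.14.

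The receptor for thrombin rose. F2r, protease-activated receptor PAR1, read 6.64, 5.59, 5.88 and 6.50 in wild type and 7.05, 6.996, 7.05 and 7.52 in MT. The wild-type arrays spread over more than the gap between the groups, but no value overlapped, and MT array 4 stood above the other MT arrays. The rise was 1.01 ± 0.21, or 2.01-fold (adjusted p = 0.00279). A second, dimmer probe set rose by 0.45 ± 0.16 with overlapping groups. Both F2r probe sets are of the type shared between transcripts. The other receptors of the family that were measured, F2rl2 and F2rl3, did not pass.

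Among anticoagulants 4 of 7 fell and 0 rose, where 21.3% of all genes fell and 19.7% rose. Tfpi was the 1 of these 4 that was above the brightest bacterial control on all 8 arrays. Tfpi, the inhibitor of the tissue factor and factor VIIa complex and of factor Xa, read 9.28, 9.17, 9.03 and 9.32 in wild type and 7.76, 7.71, 7.91 and 7.56 in MT. The spread within groups was small beside the gap, and the fall was 2.76-fold, with a difference of -1.47 ± 0.09 (adjusted p = 3.92e-07), the largest fall of the members. Its other 2 probe sets fell too, by 1.53 and 0.61 on the log2 scale, the latter at a level near 4.

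Thbd, thrombomodulin, which turns thrombin toward activating protein C, read 6.64, 5.77, 6.26 and 6.46 in wild type and 5.45, 5.40, 5.48 and 5.84 in MT. Wild-type array 2 and MT array 4 crossed, so that the groups overlapped, and the difference was -0.74 ± 0.17, or 1.67-fold lower (adjusted p = 0.00384). In MT 3 of 4 values were below the brightest bacterial control, and with the MT values raised to it the fall was 1.45-fold. Endothelium and some epithelia carry thrombomodulin. The endothelial markers had mean levels between 5.46 and 5.72 on wild-type and between 5.45 and 5.57 on MT arrays. On MT arrays their order was that of Thbd. On wild-type arrays, array 2 was lowest as for Thbd, but array 4 rather than array 1 was highest. Smooth muscle markers, of which 8 of 8 fell, had the array order of Thbd in both groups. The part of endothelial or smooth muscle content in the fall of Thbd was not tested.

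The protein C system fell in its other measured parts or did not pass. Pros1, protein S, the cofactor of activated protein C and a ligand of TAM receptors, read 5.57, 5.79, 5.69 and 6.20 in wild type and 5.19, 5.23, 5.15 and 5.24 in MT. The groups did not overlap, with wild-type array 4 well above the rest, and the fall was 1.53-fold (adjusted p = 0.00143). All MT values and 2 of 4 wild-type values were under the brightest bacterial control, and with the MT values raised to it the fall was at least 1.10-fold. Proc, protein C itself, had a difference of -0.34 ± 0.08 (adjusted p = 0.0044), at levels of 4.90 ± 0.07 and 4.56 ± 0.14 that were under that control on all 8 arrays. Procr, the endothelial protein C receptor, Serpinc1, antithrombin, and Tfpi2, a matrix-bound Kunitz inhibitor, had differences of -0.09, 0.17 and -0.06, and read between 3.53 and 4.21 on every array.

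In the list of other coagulation factors 4 of 12 genes fell and 0 rose (21.3% and 19.7% of all genes), and the 4 act in the making of clotting factors rather than in plasma. Vkorc1 and Ggcx, the reductase and carboxylase of the vitamin K cycle that modifies prothrombin, factors VII and X, protein C, protein S and Gas6, fell by 0.59 and 0.40 on the log2 scale (adjusted p = 9.46e-05 and 0.00255). Ggcx was under the brightest bacterial control on every array. Lman1 and Mcfd2 form the cargo receptor that carries factors V and VIII out of the endoplasmic reticulum, and also serve other secretory proteins. Lman1 fell from 10.35 ± 0.09 to 9.06 ± 0.08 (adjusted p = 1.65e-07) and Mcfd2 from 10.33 ± 0.07 to 9.66 ± 0.03 (adjusted p = 6.47e-06). Ventral prostate secretory genes fell on the same arrays, 4 of 4. Of 5 other coagulation inhibitors, 0 passed in limma, and 0 had an unadjusted p under 0.05.

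The activators of plasminogen did not pass, while the receptor of one of them rose. Plaur, the receptor that holds urokinase at the cell surface, read 6.53, 6.80, 6.64 and 6.61 in wild type and 6.92, 6.88, 7.04 and 6.85 in MT. The groups lay side by side without overlap, and the rise was 0.28 ± 0.08, or 1.21-fold (adjusted p = 0.0118). Plau, urokinase, had a difference of 0.05 with a 95% interval from -0.18 to 0.28. Plat, tissue plasminogen activator, had one of 0.23 ± 0.09 (adjusted p = 0.0721). It passed when wild-type array 3 (0.30, adjusted p = 0.0245) or MT array 2 (0.28, adjusted p = 0.0461) was left out, over a range of adjusted p from 0.0245 to 0.193. Anxa2 and S100a10, which together form a surface docking site for plasminogen and its tissue activator, rose by 0.63 ± 0.07 and 0.70 ± 0.06, the 2 of 6 other fibrinolysis genes that passed.

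Gas6, the vitamin K-dependent ligand of the TAM receptors, which clear dying cells and damp inflammation, did not pass. It read 9.01, 8.37, 8.46 and 8.74 in wild type and 8.42, 8.52, 8.70 and 8.71 in MT, with the MT values inside the wild-type range. The 95% interval of its difference ran from -0.34 to 0.23. Of its receptors, Axl (-0.64 ± 0.16, adjusted p = 0.00841) and Mertk (-0.66 ± 0.10, adjusted p = 0.000303) fell, and Tyro3 had a difference of 0.13 ± 0.08 (adjusted p = 0.246).

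Beside the 1 probe set that stands for each gene, all 56 probe sets of the members were tested over all 20380 probe sets with a single symbol. Of the 56, 15 rose and 10 fell, where 18.3% of all such probe sets rose, 20.1% fell and 38.4% passed in either direction. The direction was shared by all probe sets of C1qb, C3ar1, Cd55, Cd59a, F2r and Tfpi, and Masp1 was the exception among members that passed.

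**Figure D5:**
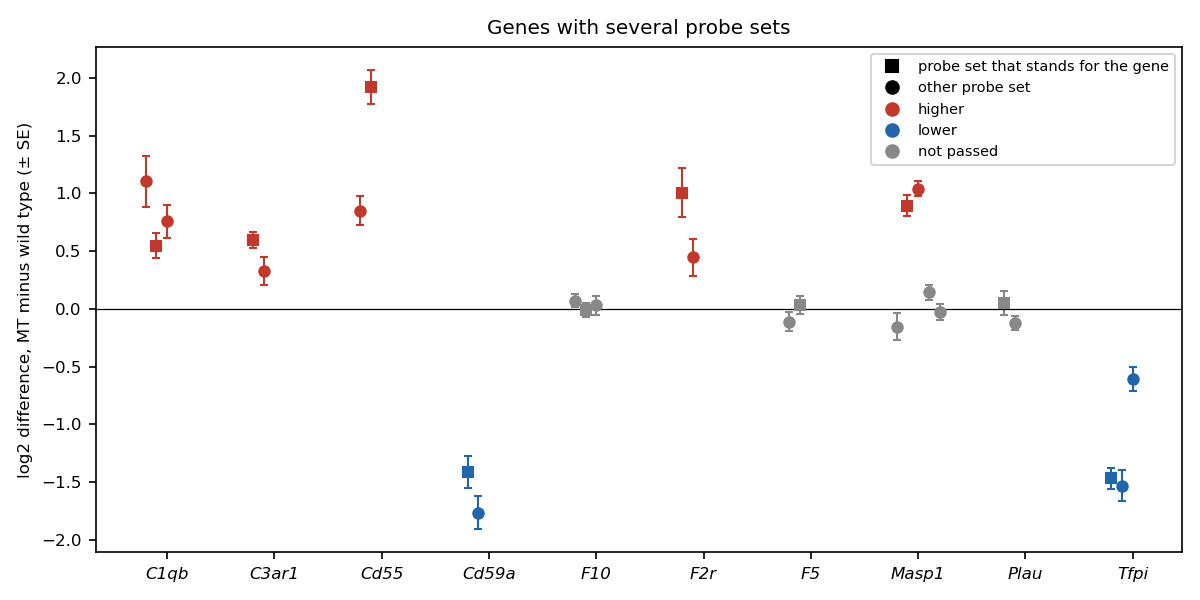
Log2 differences, MT minus wild type, with standard errors, of each probe set of the 10 members with several probe sets; squares stand for the gene in all other counts, and colours give the call of the probe set adjusted over all single-symbol probe sets. Probe sets disagree for Masp1, where 2 of 5 rose.

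The promoters of members were read for the letters of factors that act in inflammation. RefSeq starts on build GRCm38.p6 were at hand for 29 of the 40 members, and the 250 bases before each start were searched on both strands. The letters of AP-1, TGANTCA, which Fos and Jun dimers bind, were found in 8 of these 29 genes, beside 6.75% of all promoters of that length. Counted by promoter, as that share is, 8 of the 33 promoters of these genes held them. Of 9 members that rose, 6 were in the table, and 3 of them held the letters, C3ar1 and F2r among them. Of 7 that fell, 4 were in the table, and 0 held them, while 5 of 19 genes that did not pass held them. The 100 bases around the site are shown for these 2 genes and for tissue factor, which holds 2 such sites, 5′ to 3′ along the gene, with the AP-1 letters in capitals.
C3ar1, chr6:122856158-122856257, minus strand: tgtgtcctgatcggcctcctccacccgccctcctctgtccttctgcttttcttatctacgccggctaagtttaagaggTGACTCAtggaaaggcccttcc
F2r, chr13:95618617-95618716, minus strand: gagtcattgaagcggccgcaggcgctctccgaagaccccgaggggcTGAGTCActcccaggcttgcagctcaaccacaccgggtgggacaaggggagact
F3, chr3:121723345-121723444, plus strand: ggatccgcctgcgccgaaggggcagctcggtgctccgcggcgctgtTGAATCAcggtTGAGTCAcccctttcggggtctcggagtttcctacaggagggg

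The site began 22 bases before the start in C3ar1, 204 in F2r, and 146 and 135 in F3. The other motifs were found less widely among members. The interferon-stimulated response element was in 1 of 29 genes, Cd59a, which fell (2.98% of all promoters). The gamma-activated site (TTCNNNGAA) was in 4 (7.02%), C/EBP letters (TTGCNNAA) were in 5 (9.56%), and the kappaB consensus was in 1, C1qc (7.25%). Counted over the 33 promoters of the 29 genes, the numbers for these motifs were the same. A match of letters is a description and not a binding site.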

How the data were processed

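Affymetrix arrays of ventral prostate RNA (4 wild type, 4 MT) were used. The authors deposited log2 values made with RMA, per the submitters' processing notes; the sources used here give no version. All 8 columns were used as deposited, with no added scaling and no filter on low values. The array medians ran from 6.21 to 6.23, and no read depth applies, since the number of arrays limits the precision.

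Probe sets were named from the platform annotation (20380 with 1 symbol, 691 with several, 1555 with none). The probe set with the highest mean stood for a gene, which left 12393 genes. The test was limma (version 3.58.1, R 4.3.3; lmFit and eBayes, two-sided, Benjamini-Hochberg over all genes), checked on simulated data. Every adjusted p is from it, over genes unless said otherwise. Figures were drawn with matplotlib 3.10.9, and tables with pandas 2.3.3 in Python 3.11.15.

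Members, roles, lists, motifs and alternatives were chosen with earlier results of these data known. All measured members are named, as are up to 4 genes with the largest changes past the threshold per pathway list; other genes named were chosen after their values were seen. The narrower set of 12 bacterial controls was also chosen after seeing the data.

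Arrays carrying the same number in their titles deviated together from their group means (correlations 0.10 to 0.18, each of 8 arrays best with its own number), so the number was treated as a pairing in an alternative fit. RNA quality, read as the 3′ minus 5′ value of control probe sets, was 0.70 ± 0.17 in wild type and 0.51 ± 0.09 in MT for Gapdh (two-sided exact permutation test, p = 0.0857) and 0.91 ± 0.14 and 0.73 ± 0.12 for Actb (exact p = 0.114); the smallest p that 70 assignments allow is 0.0286. Of the promoter sequences searched, 1 is not reported here.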

Additional observations from a re-analysis of the deposited data

Results flagged for a closer look

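In 3 of 80 groups of 4 arrays, 40 members in 2 groups each, the highest or lowest array stood apart from the others by Dixon's criterion at the 95% level; chance gives about 1 in 20 groups. F2r read 7.52 on MT array 4, where the next MT array read 7.05. Thbd read 5.84 on the same array, where the next read 5.48. C2 read 5.94 on MT array 2, and the next lowest MT array 6.11. Leaving out the array in question changed the call of none of these 3 genes.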

How the results depend on the processing

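Each member's call and direction was recomputed under the alternatives, which gave 718 values, of which 699 kept both. Of 16 members that passed, 14 did so in every alternative in which they were scored gene by gene, the exceptions being Cfb and Masp1. The stricter thresholds were counted only over the list. Members that a filter removed were not scored there, and F2r and Plaur have no probe set of the unique type. With unique-type probe sets only, 6 members were higher and 7 lower. Of 24 that did not pass, 21 did not in these alternatives either, the exceptions being F3, Vwf and Plat. Masp1 turned sign in 2 of its other probe sets (-0.15 and -0.027). The remaining ones stayed positive (1.04 and 0.15), and of these only the first passed. With unique-type probe sets only, the Masp1 difference was -0.15. Leaving out single arrays gave 8 to 11 members higher and 7 lower. The replicate block changed no call but those of Cfb and Vwf. With a filter at the median level 5 members were higher and 4 lower, since fewer were tested. At an adjusted p under 0.01, 7 members were higher and 7 lower. Against a minimum change of 0.5 (treat), 2 members were higher and 3 lower, and 483 and 394 of all genes. Medians of role classes moved where members were lost or probe sets replaced. For complement components the median was -0.023 among unique-type probe sets, 0.93 with the filter at the median and 0.42 with a filter at the brightest of 27 bacterial controls, which was added after seeing the data. For complement inhibitors the medians were -0.31, -1.05 and -0.36 in the same order. For anticoagulants they were -0.48, -1.47 and -1.10, and -0.61 over all probe sets. For procoagulants both filters left F13a1 alone (-1.20). Signal over background limits most plasma factors: a change in a gene at the level of the controls may not be measurable.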
